A study of Mus musculus with 20 samples.

Results

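De novo fatty acid synthesis, also called lipogenesis, was followed through 10 genes: Srebf1, Mlxipl, Acly, Me1, Acaca, Acacb, Fasn, Elovl6, Thrsp and Pnpla3. They were chosen by symbol as enzymes, regulators and companion genes of the route, and all 10 were found among the 48440 Ensembl gene IDs of the table. The samples are RNA-seq libraries of 2 tissues, gonadal fat pad and liver. They come from wild-type (WT) mice and from mice described as deficient in protein kinase C epsilon, a lipid-activated kinase whose gene is Prkce. The latter carry the label AdEpsKO, shortened to KO below. No source used here spells that label out, so the cells in which Prkce was deleted, and by which driver, are not known, and KO liver means liver of mice with this label. Both genotypes were on a C57BL/6 background, and all mice of the 4 groups ate a high fat diet over 1 week and had no food for the last 6 h; the sources used here state neither age nor sex. Each of the 4 groups (WT fat, WT liver, KO fat and KO liver) had 5 libraries from 5 mice, giving 20. Fat and liver libraries of a genotype carry the same numbers, and the labels do not say whether a number marks 1 mouse.

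In lipogenesis, citrate exported from mitochondria is split to acetyl-CoA, acetyl-CoA is carboxylated to malonyl-CoA, and fatty acid synthase condenses these units into palmitate with NADPH as the reductant. Insulin acting through the transcription factor SREBP-1c and glucose acting through the transcription factor ChREBP are the textbook inducers of these genes, and fasting and dietary fat the textbook repressors. Liver and adipose tissue are the main sites of the route in mice.

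The transcription factors are Srebf1 (ENSMUSG00000020538, chromosome 11, 60199089 to 60222581, minus strand; GRCm38 throughout), which encodes SREBP-1, and Mlxipl (ENSMUSG00000005373, chromosome 5, 135089890 to 135138382, plus strand), which encodes ChREBP. Acly (ENSMUSG00000020917, chromosome 11, 100476353 to 100528000, minus strand) encodes ATP citrate lyase, which makes cytosolic acetyl-CoA. Me1 (ENSMUSG00000032418, chromosome 9, 86581371 to 86695953, minus strand) encodes cytosolic malic enzyme, a source of NADPH. Acaca (ENSMUSG00000020532, chromosome 11, 84129672 to 84401651, plus strand) encodes acetyl-CoA carboxylase 1, the cytosolic enzyme whose malonyl-CoA feeds synthesis. Acacb (ENSMUSG00000042010, chromosome 5, 114146535 to 114250761, plus strand) encodes acetyl-CoA carboxylase 2, the mitochondrial-membrane form whose malonyl-CoA restrains fatty acid oxidation. Fasn (ENSMUSG00000025153, chromosome 11, 120805846 to 120824547, minus strand) encodes fatty acid synthase. Elovl6 (ENSMUSG00000041220, chromosome 3, 129532355 to 129638495, plus strand) encodes the elongase that extends palmitate to stearate. Thrsp (ENSMUSG00000035686, chromosome 7, 97412938 to 97417730, minus strand) encodes Spot 14, a nuclear protein induced together with lipogenic enzymes. Pnpla3 (ENSMUSG00000041653, chromosome 15, 84167837 to 84187236, plus strand) encodes a lipid droplet protein of the patatin-like phospholipase family. Values are totals per gene, so the SREBP-1a and SREBP-1c forms, or the alpha and beta forms of ChREBP, were not told apart. Srebf1 overlaps Rai1, a gene on the opposite strand with a mean of 469 counts per library, and the library kit marks strand, but the sources used here do not say if the counting was by strand.

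Promoters of the members were read to show what letters of known lipogenic control elements they hold. RefSeq's GRCm38.p6 table had an entry for all 10 members, with 14 start sites, and the 250 bases before each start were searched on both strands. The letters TCACCC, the core of a sterol regulatory element (the site that SREBP binds), were in 4 of the 14 windows (1 each of Fasn, Srebf1, Pnpla3 and Me1) and in 13.8% of all 32851 promoter windows. CCAAT, the box bound by the factor NF-Y, was in 8 of 14 (33.8% of all), the GC box GGGCGG bound by SP1 in 6 of 14 (32.7%) and the E-box CACGTG in 1 of 14 (6.02%). The TCACCC core, CCAAT and GC box were together in 2 of 14 windows, 1 of Srebf1 and 1 of Pnpla3, against 1.49% of all. The motif letters were chosen after the promoter sequences were seen, and a match is a description of letters, not evidence of binding. The windows of Fasn, Srebf1 and Pnpla3 are shown because Fasn and Pnpla3 are the members with the largest difference between the tissues in favour of fat and Srebf1 encodes the factor itself. They are written 5′ to 3′ on the gene's strand. Capitals mark the TCACCC core, the CCAAT box and the GC box on either strand.
Fasn, chr11:120824548-120824797, minus strand: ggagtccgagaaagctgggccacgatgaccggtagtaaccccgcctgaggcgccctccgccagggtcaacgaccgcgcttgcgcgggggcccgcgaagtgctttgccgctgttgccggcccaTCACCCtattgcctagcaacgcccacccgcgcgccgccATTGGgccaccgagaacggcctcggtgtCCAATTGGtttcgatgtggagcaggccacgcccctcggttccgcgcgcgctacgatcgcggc
Srebf1, chr11:60210472-60210721, minus strand: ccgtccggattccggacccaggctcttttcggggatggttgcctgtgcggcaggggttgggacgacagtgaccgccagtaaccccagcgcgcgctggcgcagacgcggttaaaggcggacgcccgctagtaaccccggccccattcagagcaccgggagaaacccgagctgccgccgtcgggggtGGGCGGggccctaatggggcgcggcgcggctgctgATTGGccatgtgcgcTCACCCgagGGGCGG
Pnpla3, chr15:84167566-84167815, plus strand: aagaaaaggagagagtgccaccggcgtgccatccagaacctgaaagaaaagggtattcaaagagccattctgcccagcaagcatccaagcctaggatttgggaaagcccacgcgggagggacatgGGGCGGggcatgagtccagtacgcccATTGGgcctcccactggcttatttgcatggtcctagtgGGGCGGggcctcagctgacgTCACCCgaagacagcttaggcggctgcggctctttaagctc
Counted back from the last base before the start, TCACCC begins at position -128 in Fasn, -15 in Srebf1 and -41 in Pnpla3. This Srebf1 window precedes the downstream of its start sites, and the windows at the other Srebf1 starts held no TCACCC.

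A fat library held 12880933 to 17276907 expected counts and a liver library 13836370 to 20784145, and all 10 members passed the filter on low counts in both tissues. The summed level of 6 adipocyte markers was 15696 to 27745 CPM in the fat libraries and 8.00 to 40.1 in liver, and that of 6 hepatocyte markers 102144 to 142048 CPM in liver and 1466 to 4971 in fat, where most of it was Cyp2e1 (CPM is the usual depth-scaled count; marker sums use the plain library total, and all other CPM below are scaled by edgeR's TMM factors). Prkce was at 22.3 to 35.1 CPM in KO fat and 35.2 to 67.1 in WT fat, and at 8.64 to 14.3 in KO liver and 10.6 to 19.96 in WT liver. In KO over WT it stood at 0.615 (95% interval 0.451 to 0.84; adjusted p = 0.671) in fat and at 0.78 (95% interval 0.595 to 1.02; adjusted p = 0.409) in liver, so Prkce was not called and reads of it were present in every KO library. Every KO fat library was nonetheless below every WT fat library, and 1.27% of all genes had separate ranges in fat in either direction. The liver ranges overlapped. Which exons the deletion removes is not stated in the sources used here, so a total per gene is a limited check of the labels. Library KO fat 2 stood apart in the fat pad: the 6 markers of bladder-type epithelium, all above 0, summed to 1788 CPM there, against 8.90 to 28.9 in WT fat and 11.3 to 21.1 over the rest of KO fat. The 5 uterus and oviduct markers summed to 49.9 CPM in WT fat 5, and to 2.06 to 5.18 in the fat libraries other than these 2. In WT fat 5, Wfdc2 (25.4), Ltf (11.7) and Muc4 (11.0) were high. Tff3 was at 0 there, and Ovgp1 (1.78) was the lowest of the fat libraries. The sum of 100.4 in KO fat 2 was nearly all Wfdc2 (97.95), with Tff3 at 0 and Ovgp1, Ltf and Muc4 within the range of the other fat libraries. The genotype differences of the members in fat are given also without KO fat 2 and without WT fat 5. Those of Prkce and of genes outside the members are given with both libraries kept. The samples are whole tissue, in which fewer cells of a type and less RNA per cell cannot be told apart.

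**Figure D1:**
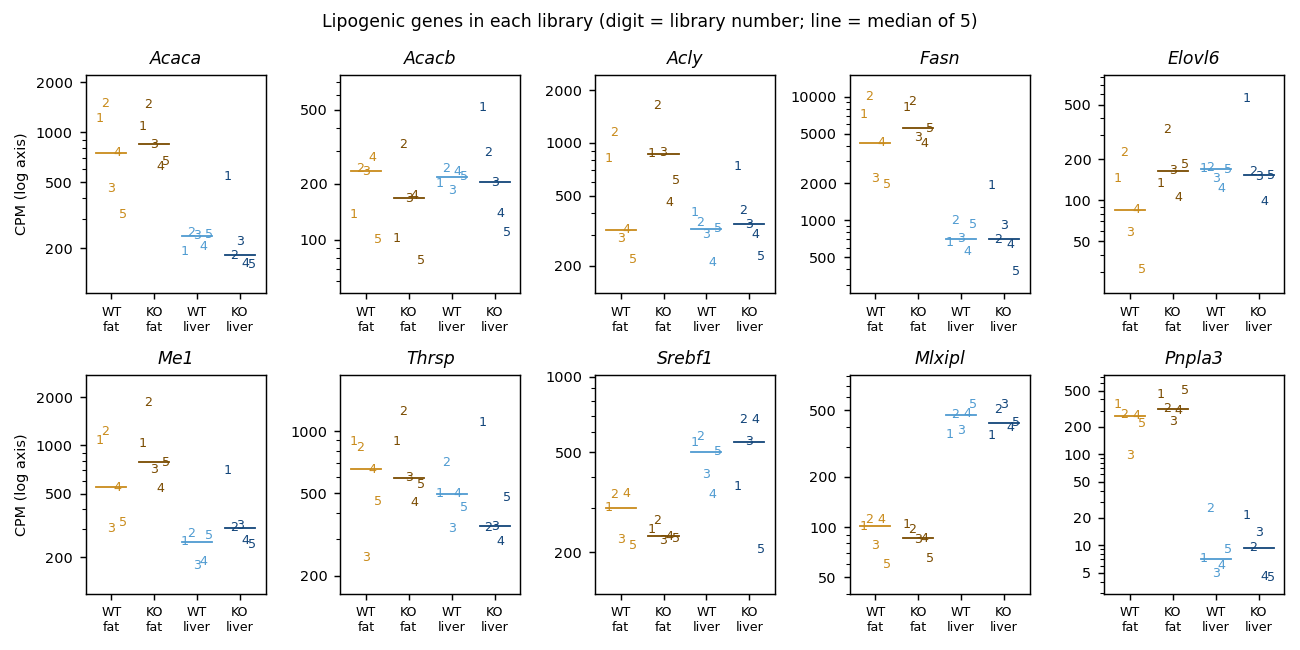
Level of each of the 10 genes in every library, in CPM on a log axis scaled over all 20 libraries; each digit is 1 library (its number in the labels) and the line is the median of 5. Fasn and Pnpla3 lie higher in fat than in liver, Mlxipl lies lower, and KO liver 1 stands above the other liver libraries for most enzymes.

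The tissues were compared first, to set the level of each gene in fat and in liver. Pnpla3, Fasn, Acaca and Me1 were higher in fat than in liver in both genotypes, Mlxipl and Srebf1 were lower in fat in both, and Acacb, Elovl6 and Thrsp passed the test in neither. Acly was higher in fat in KO. At an adjusted p under 0.05 (edgeR's quasi-likelihood test over 15652 genes, adjusted by Benjamini-Hochberg), 4 members were higher and 2 lower in WT fat than in WT liver, and 5 were higher and 2 lower in KO. The background was large: 74.3% of all genes tested passed in WT (39% higher and 35.4% lower in fat) and 75.7% in KO (39.7% and 36%), so 6 and 7 of 10 members are shares close to that of all genes. The median log2 difference of the members, fat minus liver, was 0.56 in WT and 0.84 in KO, against 0.067 and 0.072 over all genes. The levels in this comparison are CPM scaled over all 20 libraries.

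Pnpla3 had the largest of the members' differences. Its level was 350.3, 274, 96.6, 267 and 217 CPM in WT fat and 7.14, 25.5, 4.93, 5.94 and 8.99 CPM in WT liver. In KO, Pnpla3 stood at 453, 315, 228, 301 and 497 CPM in fat and 21.0, 9.46, 14.0, 4.50 and 4.41 CPM in liver. Every fat library was above every liver library, and WT liver 2 and KO liver 1 were the highest of their liver groups. The level in fat was 22.9-fold (95% interval 10.3 to 50.6; adjusted p = 5.31e-07) that in liver in WT and 33.5-fold (95% interval 14.9 to 75.7; adjusted p = 1.55e-07) in KO. The liver value rests on few reads, 50 to 341 counts per library in WT and 50 to 297 in KO.

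Fasn was at 7199.6, 10096, 2171, 4247 and 1942 CPM in WT fat and 656, 996, 709.96, 556 and 925 CPM in WT liver. In KO, Fasn was at 8126, 9215, 4688, 4149 and 5583 CPM in fat and 1907, 698, 906, 634 and 383 CPM in liver. The lowest fat library of each genotype was above its highest liver library, although the WT fat libraries themselves spread over more than 5-fold, from WT fat 5 to WT fat 2 (highest over lowest 5.20). The level in fat was 6.68-fold (95% interval 3.40 to 13.1; adjusted p = 2.79e-05) that in liver in WT and 7.02-fold (95% interval 3.56 to 13.8; adjusted p = 2.07e-05) in KO. Fasn alone took 0.275% to 1.36% of all counts in a fat library, where it ranked between 4 and 24 among genes, and 0.0279% to 0.132% in a liver library, where it ranked between 83 and 466.

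Acaca, whose product makes the malonyl-CoA that Fasn uses, was 3.76-fold (95% interval 2.10 to 6.72; adjusted p = 0.000281) the liver level in WT fat and 3.70-fold (95% interval 2.07 to 6.62; adjusted p = 0.000301) in KO fat. For Me1 the ratios were 2.98-fold (95% interval 1.64 to 5.42; adjusted p = 0.00202) and 2.70-fold (95% interval 1.49 to 4.90; adjusted p = 0.00389). Acly stood at 1.75-fold the liver level in WT (adjusted p = 0.0988) and 2.20-fold in KO (adjusted p = 0.0244), so that the call was made in KO and not in WT. The difference between these 2 ratios was itself not called (0.33 on the log2 scale, adjusted p = 0.979). Acly was not called in KO without KO fat 2 (adjusted p = 0.1) or without KO liver 3, 4 or 5 (adjusted p 0.0506 to 0.0623), nor by limma-voom (0.0529), and it was called in WT without WT fat 5 (0.0395). Acacb, the partner of Acaca, was at 0.917 (95% interval 0.512 to 1.64; adjusted p = 0.787) of the liver level in WT fat and at 0.669 (95% interval 0.373 to 1.2; adjusted p = 0.198) in KO fat, with ranges that overlapped in each genotype. Without KO fat 2, the KO ratio of Acacb was 0.513 (adjusted p = 0.034), which passed. The KO ratios without KO fat 2 were 34.5 for Pnpla3, 6.22 for Fasn, 3.18 for Acaca and 2.11 for Me1, each still called. Without WT fat 5 the WT ratios of these genes were 23.4, 7.71, 4.34 and 3.37, also called.

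The transcription factors went the other way. Mlxipl was at 101, 111, 78.0, 111 and 59.9 CPM in WT fat and 359.8, 470.3, 382, 479 and 544 CPM in WT liver. In KO it was at 104, 97.2, 83.8, 86.0 and 65.0 CPM in fat and 356, 505, 541, 395 and 423 CPM in liver. The fat libraries lay far below the liver libraries with no overlap, at a ratio of 0.206 (95% interval 0.158 to 0.268; adjusted p = 8.38e-10) in WT and 0.196 (95% interval 0.151 to 0.255; adjusted p = 5.29e-10) in KO. Srebf1 was at 301, 339, 225, 344 and 212 CPM in WT fat and 545, 576, 408, 339 and 504 CPM in WT liver, where WT fat 2 and 4 lay just above WT liver 4. Its ratio of fat to liver was 0.599 (95% interval 0.42 to 0.854; adjusted p = 0.0105) in WT and 0.484 (95% interval 0.339 to 0.692; adjusted p = 0.000755) in KO. The low value of KO liver 5 (206 CPM) made the KO ranges of Srebf1 overlap. Srebf1 in WT was not called under upper quartile scaling (adjusted p = 0.0947). Without KO fat 2 the KO ratios were 0.191 for Mlxipl and 0.469 for Srebf1, and without WT fat 5 the WT ratios were 0.224 and 0.636, each still called.

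Of the 10 members, 5 had ranges in fat and liver that did not overlap in WT (4 above, Mlxipl below), and 4 in KO (Acaca, Fasn and Pnpla3 above, Mlxipl below). The same was true of 61.2% of all genes in WT (32% above and 29.3% below) and 61.8% in KO (32.2% and 29.6%). Elovl6 was at 0.697 (95% interval 0.344 to 1.41; adjusted p = 0.341) of the liver level in WT fat and 0.816 (95% interval 0.403 to 1.65; adjusted p = 0.591) in KO fat, and Thrsp at 1.25 (95% interval 0.715 to 2.17; adjusted p = 0.462) and 1.46 (95% interval 0.837 to 2.55; adjusted p = 0.203). Both depended on KO liver 1: without it the KO ratio was 2.04 for Thrsp, which passed (adjusted p = 0.0113), and 1.30 for Elovl6 (adjusted p = 0.435). Scaling bears on this comparison, since the tissues differ in their most abundant genes. With upper quartile factors the median of all genes moved from 0.067 to 0.35 in WT and from 0.072 to 0.36 in KO, and the share of calls that were higher in fat from 52.4% to 64.8% in WT and from 52.5% to 64.7% in KO. Acacb in WT then turned from -0.12 to 0.15 on the log2 scale.

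**Figure D2:**
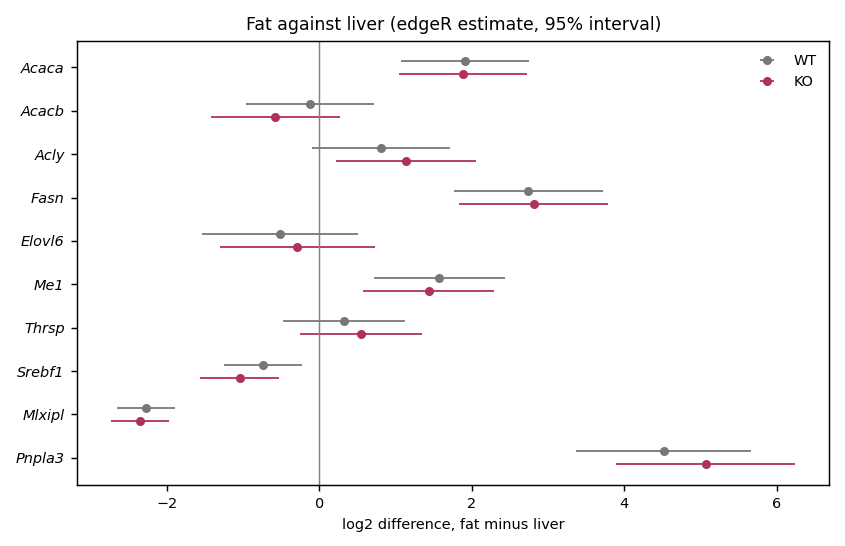
Log2 difference between fat and liver for each gene, from edgeR, in WT (grey) and KO (red); points are estimates, bars the 95% interval, and values above 0 mean higher in fat. Pnpla3 and Fasn lie farthest to the right and Mlxipl farthest to the left in both genotypes.

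Levels per kb of the longest transcript allow the genes to be set beside each other. In WT fat the order of the mean CPM per kb was Fasn (511), Thrsp (439), Me1 (212), Pnpla3 (183), Acly (126), Acaca (88.6), Srebf1 (66.1), Mlxipl (25.4), Acacb (22.5) and Elovl6 (18.3). In WT liver it was Thrsp (352), Mlxipl (123), Srebf1 (110.4), Fasn (76.5), Acly (71.9), Me1 (71.2), Elovl6 (26.2), Acacb (24.6), Acaca (23.6) and Pnpla3 (8.00). Of the 9 neighbouring pairs in an order, 2 in WT fat (Thrsp over Me1, Srebf1 over Mlxipl) and 4 in WT liver (Thrsp over Mlxipl, Srebf1 over Fasn, Me1 over Elovl6, Acaca over Pnpla3) differed by more than the larger of their SDs, and the rest did not. KO followed with Fasn (632) and Thrsp (533) at the top in fat and Thrsp (365) at the top in liver. In WT, the means of Srebf1 and Mlxipl stood above those of Fasn and Acaca in liver and below them in fat.

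The carboxylase forms shifted against each other. Acaca per kb over Acacb per kb was 4.19 ± 2.61 in WT fat and 5.98 ± 2.76 in KO fat, against 0.968 ± 0.148 in WT liver and 0.993 ± 0.281 in KO liver (SD, n = 5 each). The lowest fat library, at 1.80, was above the highest liver library, at 1.35. Srebf1 per kb over Mlxipl per kb was 2.62 ± 0.216 in WT fat and 2.36 ± 0.351 in KO fat, against 0.917 ± 0.257 in WT liver and 0.941 ± 0.38 in KO liver. These ratios had no overlap between the tissues and overlapped between the genotypes.

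Between the genotypes, no member passed the test in either tissue. In fat, 7 of the 10 estimates were higher in KO and 3 (Acacb, Srebf1 and Mlxipl) were lower, and in liver 9 were higher and 1 (Mlxipl) lower. In fat edgeR called 0 members, as it did 0% of the 14707 genes tested, and 0 members had an unadjusted p under 0.05, which 7.34% of all genes had. In liver it called 0 members and 0.00752% of 13298 genes (1 gene), and 0 members had an unadjusted p under 0.05, against 13.3% of all genes. DESeq2 and limma-voom also called 0 members in each tissue. The median log2 difference of the members, KO minus WT, was 0.29 in fat and 0.19 in liver, against 0.00105 and 0.000106 over all genes. The KO and WT ranges of 0 members were separate in fat (1.27% of all genes) and in liver (2.79%). From here, levels are CPM scaled within a tissue.

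**Figure D3:**
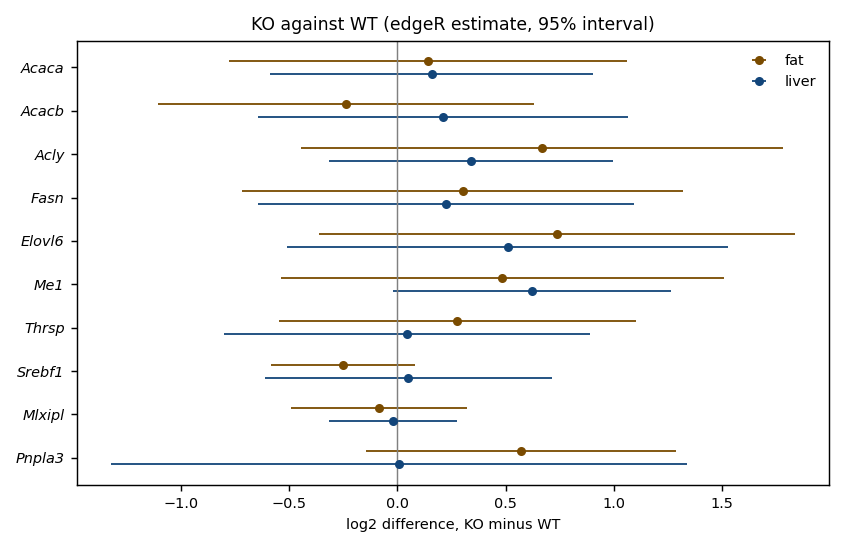
Log2 difference between KO and WT for each gene, from edgeR, in fat (brown) and liver (blue); points are estimates and bars the 95% interval, with values above 0 higher in KO. Every bar includes 0; the Srebf1 bar in fat runs from -0.59 to 0.082 and the Me1 bar in liver from -0.022 to 1.26.

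Srebf1 in fat was at 415, 474, 307, 478 and 294 CPM in WT and 343, 367, 309, 318 and 316 CPM in KO. The KO libraries lay close together inside the lower part of the WT range, with WT fat 3 and 5 below them. The log2 difference was -0.25 (95% interval -0.59 to 0.082; adjusted p = 0.703). The SD of log2 CPM of Srebf1 was 0.34 over the 5 WT fat libraries and 0.10 over the 5 KO fat libraries; the difference of these SDs was not tested. Mlxipl in fat differed by -0.085 (95% interval -0.49 to 0.32; adjusted p = 0.939), with 83.0 to 155 CPM in WT and 90.3 to 144 in KO. Without KO fat 2 the differences were -0.29 for Srebf1 and -0.12 for Mlxipl, and without WT fat 5 they were -0.33 and -0.20.

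Among the enzymes in fat, Elovl6 and Acly had the largest estimates. Elovl6 was at 199, 314, 79.1, 119 and 43.3 CPM in WT and 183, 451, 227, 143 and 254 CPM in KO. Acly was at 1119, 1612, 391, 445 and 302 CPM in WT and 1211, 2234, 1223, 627 and 855 CPM in KO. In each, KO fat 2 was the highest and WT fat 5 the lowest of the 10, and WT fat 1 and 2 lay within the KO range. The log2 differences were 0.74 (95% interval -0.36 to 1.84; adjusted p = 0.734) for Elovl6 and 0.67 (95% interval -0.45 to 1.78; adjusted p = 0.768) for Acly. Without KO fat 2 they were 0.42 and 0.34, without WT fat 5 0.51 and 0.47, and without WT fat 2 1.19 and 1.12.

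Fasn in fat was at 9941, 14099, 2966, 5904 and 2691 CPM in WT and 11316, 12598, 6487, 5697 and 7755 CPM in KO. WT held both the highest and the lowest libraries, so the KO values lay wholly inside the WT range. The log2 difference was 0.30 (95% interval -0.72 to 1.32; adjusted p = 0.901), an interval that reaches from 0.608-fold to 2.50-fold. It was 0.13 without KO fat 2, 0.10 without WT fat 5 and 0.71 without WT fat 2. Me1 differed by 0.48 (95% interval -0.54 to 1.51; adjusted p = 0.825), Acaca by 0.14 (95% interval -0.78 to 1.06; adjusted p = 0.955) and Acacb by -0.24 (95% interval -1.11 to 0.63; adjusted p = 0.91). Without KO fat 2, Me1 was at 0.13, Acaca at -0.072 and Acacb at -0.61. Without WT fat 5 these were 0.31, -0.058 and -0.40, and without WT fat 2 0.79, 0.45 and -0.15.

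Thrsp in fat differed by 0.28 (95% interval -0.55 to 1.10; adjusted p = 0.883), by 0.018 without KO fat 2, 0.19 without WT fat 5 and 0.41 without WT fat 2. Pnpla3 was at 484, 382, 132, 371 and 301 CPM in WT fat and 631, 430.2, 315, 413 and 691 CPM in KO fat. KO fat 5 and KO fat 1 were the highest and WT fat 3 the lowest, with the remaining values overlapping. The log2 difference of Pnpla3 was 0.57 (95% interval -0.15 to 1.29; adjusted p = 0.695), and it was 0.62 without KO fat 2 and 0.54 without WT fat 5. With 1 library left out it ran from 0.37 (without WT fat 3) to 0.74 (without WT fat 1). Over the 10 members, the median in fat was 0.075 without KO fat 2, with 6 estimates higher and 4 lower. It was 0.15 without WT fat 5 (6 higher and 4 lower) and 0.54 without WT fat 2.

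In liver, library KO liver 1 moved the estimates of KO against WT most for 7 of the 10 members; Srebf1 moved most without KO liver 5, Mlxipl without KO liver 3 and Pnpla3 without WT liver 2. Fasn in liver was at 473, 718, 526, 404 and 667 CPM in WT and 1366, 506, 649.6, 457 and 279.5 CPM in KO. Elovl6 was at 123, 126, 107, 88.4 and 122 CPM in WT and 398, 119, 107, 70.2 and 112 CPM in KO. KO liver 1 was the highest of the 10 liver libraries in both, and the other KO libraries lay within or below the WT range. The log2 differences were 0.22 (95% interval -0.64 to 1.09; adjusted p = 0.836) for Fasn and 0.51 (95% interval -0.51 to 1.53; adjusted p = 0.649) for Elovl6. Without KO liver 1 they were -0.24 and -0.15, below 0.

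Me1 had the smallest p of the members in liver. It was at 179.9, 204, 132, 137 and 198 CPM in WT and 499, 221, 228, 184 and 175 CPM in KO. KO liver 1, 3 and 2 were above every WT library, and KO liver 4 and 5 were inside the WT range. The log2 difference was 0.62 (95% interval -0.022 to 1.26; adjusted p = 0.386) with an unadjusted p of 0.0568, and 0.25 without KO liver 1. Thrsp was at 359, 510.2, 249, 362 and 307 CPM in WT and 786, 247, 249, 211 and 349.8 CPM in KO. Apart from KO liver 1 the KO libraries of Thrsp lay at or below the middle of the WT range, and the log2 difference went from 0.045 to -0.43 without KO liver 1.

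Acaca (0.16), Acacb (0.21) and Acly (0.34) had log2 differences in liver with adjusted p of 0.87, 0.842 and 0.642. Without KO liver 1 they were at -0.32, -0.22 and 0.0115. Pnpla3 differed by 0.00838 (95% interval -1.32 to 1.34), the widest interval of the members, and by 0.65 without WT liver 2 and -0.39 without KO liver 1. Srebf1 in liver was at 394, 416, 302, 247 and 364 CPM in WT and 263, 491, 395, 486 and 150.3 CPM in KO. KO liver 2 and 4 were above every WT library and KO liver 5 below every WT library, and the log2 difference was 0.051 (95% interval -0.61 to 0.71; adjusted p = 0.959). It ran from -0.089 without KO liver 2 to 0.25 without KO liver 5. Mlxipl was nearly level, at 325 ± 53.4 CPM in WT and 320.4 ± 55.6 in KO (SD, n = 5 each), with a log2 difference of -0.019 (95% interval -0.31 to 0.28; adjusted p = 0.969). Over the 10 members, leaving out KO liver 1 turned the median from 0.19 to -0.18, with 4 estimates higher and 6 lower. Leaving out KO liver 5 instead raised the median to 0.34, with Fasn at 0.42, Acly at 0.49 and Me1 at 0.74.

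The genotype effect was not shown to differ between the tissues for any member. As the difference of the log2 effects, fat minus liver, 5 members were above and 5 below 0, with a median of 0.025 against 0.00543 over all genes. EdgeR called 0 members and 0% of 15652 genes, and 0 members had an unadjusted p under 0.05, against 5.79% of all genes; DESeq2 and limma-voom called 0 members. The estimates ran from -0.45 for Acacb (95% interval -1.64 to 0.73) to 0.55 for Pnpla3 (-0.86 to 1.96).

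Most members varied between libraries of the same group more than the median gene did. This held for 10 of 10 members in WT fat, 9 in KO fat, 8 in WT liver and 10 in KO liver. The SD of log2 CPM over the 5 libraries had a median over the members of 0.85 in WT fat, 0.55 in KO fat, 0.30 in WT liver and 0.74 in KO liver. Over all genes tested the median was 0.24, 0.24, 0.21 and 0.22 in these groups. Elovl6 in WT fat had an SD of 1.12, larger than that of 97.5% of genes, and Fasn one of 1.05 (96.9%). The exceptions were Srebf1 in KO fat, with an SD larger than that of 12.9% of genes, and Acaca (38.4%) and Acacb (30.2%) in WT liver. Without KO fat 2 the median over the members in KO fat was 0.41, and without KO liver 1 that in KO liver was 0.35.

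The members moved together from library to library. In fat, WT fat 5 was among the lowest 3 of the 10 libraries for 10 of 10 members and WT fat 3 for 9 of 10, whereas WT fat 2 was among the highest 3 for 8 and KO fat 2 for 7. In liver, KO liver 1 was the highest for 7 members and among the highest 3 for 8, yet it ranked 8 of 10 for Srebf1 and 10 of 10 for Mlxipl. Averaged over the 10 genes, the deviation of log2 CPM from each gene's tissue mean was -0.96 in WT fat 5, -0.83 in WT fat 3, 0.63 in WT fat 2, 0.82 in KO fat 2 and 0.97 in KO liver 1. The desaturase gene Scd1, no member, was also at 24665 CPM in KO liver 1 against 1866 to 6567 in the other liver libraries. The hepatocyte marker sum of KO liver 1, 122693 CPM, lay within the range of the others, and most of it was Alb (101412). Of the single markers, Tat (2463 CPM) was the highest of the liver libraries there, and Cyp2e1 (6396) and Fgb (3629) were the lowest. Alb, Apoa1 and Ttr lay within the range of the others.

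**Figure D4:**
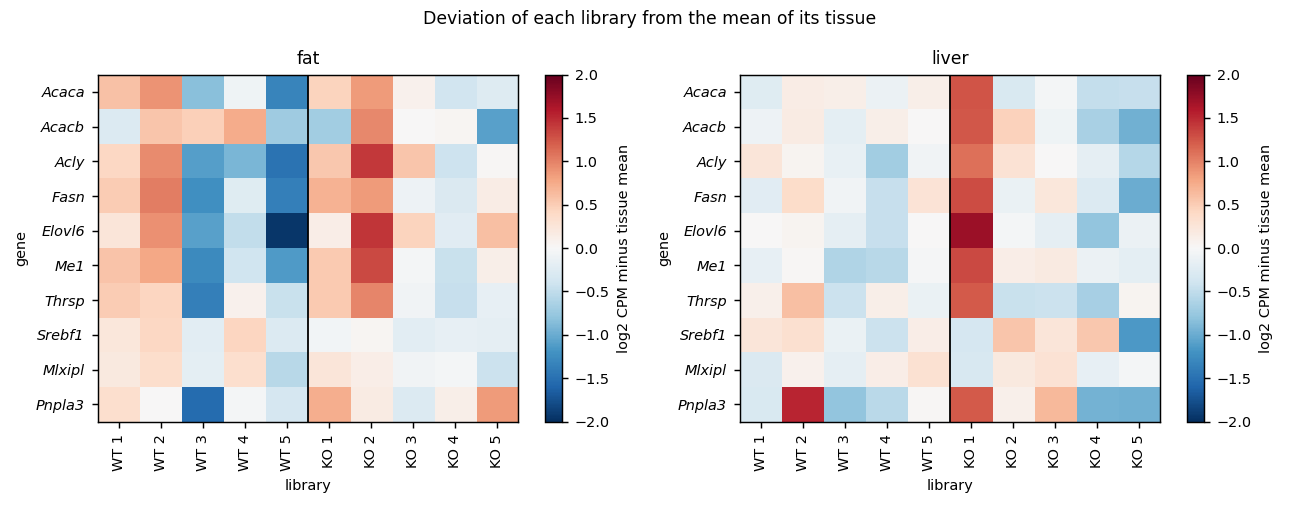
Log2 CPM of each gene (vertical axis) in each library (horizontal axis) minus the mean of that gene over the 10 libraries of the tissue; red is above and blue below the mean, and the black line separates WT from KO. Columns mostly of 1 colour are libraries in which most genes moved together. Examples in fat are WT 3 and WT 5 (blue) and WT 2 and KO 2 (red). Examples in liver are KO 1 (red) and KO 5 (blue). The exceptions within these columns are Acacb in WT fat 3 and Thrsp in KO liver 5, which are above the mean, and Srebf1 and Mlxipl in KO liver 1, which are below it.

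Marker sums of other cells differed among the fat libraries with low and high levels of the members. The 4 stromal markers summed to 2803 to 9770 CPM in WT fat and 2928 to 6075 in KO fat, and the 6 macrophage markers to 717 to 3296 and 480.4 to 2375, with no marker at 0. WT fat 3 had the highest sum of both lists (9770 and 3296 CPM), and WT fat 5 the next highest stromal sum in WT fat (5741) with a macrophage sum of 1257. KO fat 3, with stromal and macrophage sums of 6075 and 2375, had a member score of 0.031, near the tissue mean. KO fat 4, with sums of 3699 and 1772, had the lowest score of KO fat, -0.23. The adipocyte sum was 18191 in WT fat 3 and 25779 in WT fat 5, against 18191 to 27745 over WT fat. In KO fat 2, which had the highest member score, it was 15696, the lowest of the fat libraries. The 3 erythroid markers summed to 390 to 2524 CPM in WT fat, highest in WT fat 3, and to 304 to 1039 in KO fat. The 5 brown adipocyte markers summed to 91.1 to 444 CPM in WT fat and 13.5 to 603 in KO fat. The 6 skeletal muscle markers summed to 679 CPM in WT fat 2 and 528 in KO fat 2, the libraries with the highest member scores, and to 14.9 to 329 in the other fat libraries, with no marker at 0. The part of these cells in the level of the lipogenic genes was not tested.

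Pair by pair, Pearson's r between members over the 10 libraries of a tissue, taken on deviations of log2 CPM from the group means, had a median of 0.71 in fat over 45 pairs, of which 44 were positive; Spearman's rho had a median of 0.72. In liver the median r was 0.67 with 35 positive pairs, and the median rho 0.50. Pairs drawn over all genes had a median r of -0.002 in fat and -0.0012 in liver, where positive and negative pairs balance. That median does not show how often other sets of genes reach values like those of the members. The correlations are descriptions, since all members were measured in the same libraries, which differ in cell makeup and scaling. The part of either in these correlations was not tested. In fat the tightest pair was Acaca and Fasn (0.97), and the lowest Acacb and Pnpla3 (-0.40). In liver the tightest was Acaca and Elovl6 (0.92).

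The transcription factors followed the enzymes in fat, and over all 10 liver libraries their r with the enzymes was low or negative. In fat, r with Fasn was 0.86 for Srebf1 and 0.77 for Mlxipl. In liver, r with Fasn was 0.29 for Srebf1 and -0.12 for Mlxipl over 10 libraries, and 0.77 and 0.51 over the 9 without KO liver 1. Over the 10 libraries, r with the enzymes ran from -0.22 (Elovl6) to 0.34 (Acly) for Srebf1. For Mlxipl it ran from -0.38 (Acly) to -0.072 (Acacb). Without KO liver 1 the pairs still differed, with Srebf1 at -0.034 with Elovl6 and 0.80 with Acly. Mlxipl was then at -0.0026 with Acly and 0.66 with Acaca. The median r of Srebf1 with the other members in liver went from 0.20 to 0.46, and that of Mlxipl from -0.22 to 0.49, when that library was left out. That of Thrsp went the other way, from 0.63 to -0.061. The liver median over all 45 pairs was then 0.50, and the fat median without KO fat 2 0.74. The genes outside the list whose deviations followed the mean of the members most closely were Pdha1 (r = 0.99), Cs (0.98), Mpc1-ps (0.98), Pcyt2 (0.98) and Hsd17b12 (0.98) in fat. In liver they were B4galt7 (0.95), Pltp (0.94), Cyb5r3 (0.92), Ece1 (0.92) and Pgd (0.91). For this, 14139 and 12376 genes were compared over all 10 libraries of the tissue. The r values of these genes were not taken without KO fat 2 or KO liver 1.

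Lists of other genes around the route, 5 in number, held 0 genes that edgeR called between KO and WT in either tissue. Of 12 genes that supply acetyl-CoA and NADPH, 9 were higher and 3 lower in KO fat (median log2 difference 0.07), and 7 higher and 5 lower in KO liver (0.047). Acss2, the cytosolic acetyl-CoA synthetase, had a ratio of 1.52 in fat (adjusted p = 0.779) and 1.90 in liver (adjusted p = 0.462); it too was highest in KO liver 1, at 664 CPM against 89.9 to 332 in the other liver libraries. The supply gene with the smallest p in liver was Idh1, at a ratio of 1.16 (95% interval 1.01 to 1.32, unadjusted p = 0.0315). Of 17 regulators, 11 were higher in KO fat (0.09) and 8 in KO liver (-0.035). Nr1h2, which encodes the oxysterol receptor LXR beta, had a ratio of 0.847 (95% interval 0.754 to 0.951; unadjusted p = 0.00922) in fat, the 1 regulator with an unadjusted p under 0.05 there.

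Of 11 elongation and desaturation genes, 6 were higher in KO in each tissue, with medians of 0.022 and 0.00695. Scd2, a stearoyl-CoA desaturase, had a ratio of 1.92 (95% interval 1.10 to 3.35; unadjusted p = 0.0258) in fat, and Elovl5, an elongase of polyunsaturated fatty acids, one of 1.33 (95% interval 1.00 to 1.77; unadjusted p = 0.0476) in liver. Of the carbohydrate-responsive genes, 5 of 9 were tested in fat, with 1 higher and 4 lower (-0.20), and 9 in liver, with 4 higher (-0.044). Khk, which encodes ketohexokinase, had a ratio of 0.786 (95% interval 0.622 to 0.994; unadjusted p = 0.0453) in fat, and Txnip, a glucose-induced gene, one of 0.662 (95% interval 0.466 to 0.941; unadjusted p = 0.0252) in liver. Of the fasting and insulin response genes, 3 of the 7 tested were higher in KO fat (-0.022) and 2 of 9 in KO liver (-0.32). Pck1, phosphoenolpyruvate carboxykinase, had a ratio of 0.724 (95% interval 0.538 to 0.975; unadjusted p = 0.0359) in fat. In liver, Pdk4, a kinase that inhibits pyruvate dehydrogenase, had a ratio of 0.577 (95% interval 0.314 to 1.06; unadjusted p = 0.071), Igfbp1 one of 0.652 (95% interval 0.408 to 1.04; unadjusted p = 0.0706) and the fasting hormone Fgf21 one of 0.364 (95% interval 0.0958 to 1.39; unadjusted p = 0.121). In fat the lists had 0, 1, 1, 1 and 1 genes with an unadjusted p under 0.05, in the order given here, and in liver 1, 0, 1, 1 and 0, against 7.34% and 13.3% of all genes.

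Across the tissues in WT, 8 of the 12 supply genes were called higher in fat and 2 lower (median log2 difference 0.82). Of the 17 regulators, 2 were called higher and 10 lower in fat (-0.87). Over all genes, 39% were called higher and 35.4% lower. In KO the counts of the supply genes and regulators were 8 and 2, and 2 and 10. The lists were chosen with earlier results of these data known, so these shares are descriptions and not a test. The carbohydrate-responsive list had 3 of 9 higher and 6 lower in each genotype. Of the 11 elongation and desaturation genes, 3 were higher and 5 lower in WT (-0.17), and 3 and 4 in KO. Of the 9 fasting and insulin response genes, 2 were higher and 6 lower in each genotype (-2.31 in WT).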

How the data were processed

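Libraries came from a stranded TruSeq mRNA kit after Qiagen RNeasy extraction, per the labels' protocols. Trim Galore 0.2.8, STAR 2.4.0d, RSEM 1.2.12, DESeq2 and genome build GRCm38 stand in the submitters' processing notes, with no order or settings. The strand option of the counting and the annotation release were not given in the sources used here. Expected counts per gene and library are what the authors deposited, and 3.95% to 5.8% of the values of a library are not whole. Of 48440 IDs, 48058 matched a symbol in the GENCODE annotation of GRCm38.

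The expected counts were made whole by rounding. EdgeR's filterByExpr (minimum count 10, minimum total 15) chose the genes, and TMM scaled them, within a tissue for KO against WT and over 20 libraries for fat against liver and for the interaction. Tests were edgeR's robust quasi-likelihood tests (edgeR 4.0.16, limma 3.58.1, R 4.3.3) with group as the term, adjusted by Benjamini-Hochberg over all genes tested and called at an adjusted p under 0.05. A prior count of 2 was used for log2 CPM. The steps were tested on simulated data. The SD over 5 libraries holds counting error and differences between mice, and depth limits the lowest gene, Pnpla3 in liver, most.

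The 10 members were given by symbol. The genes named are the members, Prkce, up to 4 genes with the smallest KO against WT p in each of 5 lists, and the 5 genes most like the mean of the members. The members and the lists were chosen with earlier results of these data known. Alternatives were RLE and upper quartile scaling, other filters, DESeq2 1.42.0, limma-voom with sample quality weights, fits on other sets of samples, a replicate block, and leaving out 1 library at a time.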

Additional observations from a re-analysis of the deposited data

Results flagged for a closer look

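A library was far from the other 4 of its group, by Dixon's 95% critical value of 0.71 on the gap over the range, in 5 of the 40 groups made by 10 genes in 4 groups of 5 libraries; chance flags about 1 in 20 groups. On the CPM scale set within a tissue, Acaca in KO liver 1 stood at 386 CPM, Elovl6 at 398 CPM, Me1 at 499 CPM and Thrsp at 786 CPM, each the highest of the KO liver libraries. These 4 flags come from 1 library and are not independent of each other. In WT liver 2, Pnpla3 stood at 18.4 CPM, the highest of the WT liver libraries.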

How the results depend on the processing

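Changes of tool, scaling, filter or sample set left 0 members called in KO against WT and in the difference of the KO effects between the tissues. Over all genes, edgeR called 0 in fat and DESeq2 13; in liver edgeR called 1, DESeq2 137, limma-voom 3, all 20 libraries in 1 fit 5, and edgeR with 1 library left out 0 to 4; for the difference between the tissues the counts were 0 with edgeR and 2 with DESeq2. Fat against liver had 6 members called in WT (6 to 7 with 1 library left out) and 7 in KO (6 to 8; 6 by limma-voom). The causes of these changes were not tested.

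By limma-voom the log2 difference of KO against WT in fat was -0.034 for Acaca and -0.043 for Thrsp, and in liver -0.082 for Acaca, -0.030 for Acacb and -0.26 for Thrsp. Under upper quartile scaling Pnpla3 in liver was at -0.023, and Acacb in fat against liver in WT at 0.15. For the difference between the tissues, Acaca was at 0.0027 by limma-voom, and the median over the members was -0.00085 with no filter.

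The replicate numbers were checked for pairing, since the groups share them. Same-numbered KO and WT libraries correlated at -0.23 to 0.34 in fat and -0.16 to 0.19 in liver, and same-numbered fat and liver libraries at -0.02 to 0.16, so the samples were treated as sharing only a number. Fat and liver libraries of 1 number may still come from 1 mouse, which these correlations do not settle. With the replicate block, KO against WT in liver was at -0.028 for Acaca, -0.0080 for Acacb, -0.11 for Thrsp and -0.045 for Srebf1, and the difference between the tissues at 0.29 for Acaca and 0.044 for Me1; members called stayed at 0 in these comparisons and at 6 and 7 for fat against liver.

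With 1 library left out, the median over the members ran from 0.075 to 0.54 in fat, from -0.18 to 0.34 in liver and from -0.16 to 0.50 for the difference between the tissues. In fat, Acaca ran from -0.072 to 0.45, Mlxipl from -0.20 to 0.0024, Fasn from 0.10 to 0.71, Elovl6 from 0.42 to 1.19, Acly from 0.34 to 1.12 and Me1 from 0.13 to 0.79. Pnpla3 there ran from 0.37 to 0.74, Thrsp from 0.018 to 0.44, Srebf1 from -0.33 to -0.17 and Acacb from -0.61 to -0.056. In liver, Acaca ran from -0.32 to 0.28, Acacb from -0.22 to 0.40, Fasn from -0.24 to 0.42 and Elovl6 from -0.15 to 0.70. Thrsp there ran from -0.43 to 0.21, Srebf1 from -0.089 to 0.25, Mlxipl from -0.097 to 0.060 and Pnpla3 from -0.39 to 0.65. Me1 in liver ran from 0.25 to 0.74 and Acly from 0.0115 to 0.49. For the difference between the tissues, Acly ran from -0.0093 to 0.78, Pnpla3 from -0.087 to 0.95, Acaca from -0.24 to 0.46, Elovl6 from -0.10 to 0.90, Fasn from -0.14 to 0.54, Me1 from -0.50 to 0.24, Mlxipl from -0.19 to 0.019 and Thrsp from -0.036 to 0.71. In fat against liver, Acacb in WT ran from -0.27 to 0.041 and Elovl6 in KO from -0.62 to 0.37.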
